A study of Mus musculus with 6 samples.

Results

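Interferon-stimulated genes were followed gene by gene through 6 RNA sequencing libraries of transformed mouse embryonic fibroblasts. A set of 40 genes was taken by symbol from the 23420 genes of the deposited table: 5 for RNA sensing, 2 receptor subunits, 5 transcription factors and 28 induced effectors. All 40 symbols were found, each in 1 row, and 39 passed the filter on low counts; Mx1 did not. The cells came as 3 lines of mixed 129/Sv-C57BL/6 strain, and every library, controls included, was from cells carrying both E1A and HrasG12V, kept at 5% oxygen for 24 h of recovery before harvest. Each line was measured once under a control guide RNA with no target (sgNTC), in which p53 is labelled wild-type, and once under a guide against p53, sgp53(1), written sgp53 from here on. By the labels, p53 is functionally inactive in the sgp53 cells of line 2, while lines 1 and 3 are given as p53 null with that guide. Nothing in the labels says whether an sgp53 library came from 1 clone or a pool, or whether the lines came from separate embryos.

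Type I interferons bind the receptor made of Ifnar1 and Ifnar2, whose kinases phosphorylate STAT proteins, Stat2 among them. These join Irf9 in a complex that binds the interferon-stimulated response element (ISRE) in the promoters of antiviral genes. Upstream, RIG-I (Ddx58) and MDA5 (Ifih1) sense double-stranded RNA in the cytosol and Tlr3 senses it in endosomes. The sensors act through Irf3 and Irf7, and several are themselves interferon-induced. E1A, an adenoviral oncoprotein present in all 6 libraries, is known to dampen transcription in response to interferon.

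A sequence that matches the core of this element lies in the promoters of several members, and a few promoters are shown because the results turn on their genes. The sequences are RefSeq windows on GRCm38.p6, from 250 bases before to 50 after a start site, read in the direction of transcription. Capitals mark the ISRE core, which is GAAA, any 2 bases and GAAA again, or TTTC, any 2 bases and TTTC where it lies on the other strand. The sensors Ddx58 (chr4:40239776-40240075, minus strand) and Ifih1 (chr2:62646206-62646505, minus strand) hold 1 match each. These matches begin at positions 3 and 33, with the start site counted as position 1. The effectors Oas3 (chr5:120777610-120777909, minus strand), Ifit3 (chr19:34583279-34583578, plus strand), Ifit1 (chr19:34640639-34640938, plus strand) and Rsad2 (chr12:26456403-26456702, minus strand) are, among the effectors with a match, those whose levels differed most between libraries. The receptor gene Ifnar1 (chr16:91484965-91485264, plus strand) has none and is the member whose level differed least. Oasl2, whose level differed most of all tested members (5.04 log2 units from lowest to highest library), also has none. Nor have Ifi44, Irf7, Oasl1 and Xaf1, at 3.75 to 4.17 log2 units, while Eif2ak2 has a match and differed by 1.18. The promoters shown were picked by match and by difference, and a link between these was not tested.
Ddx58: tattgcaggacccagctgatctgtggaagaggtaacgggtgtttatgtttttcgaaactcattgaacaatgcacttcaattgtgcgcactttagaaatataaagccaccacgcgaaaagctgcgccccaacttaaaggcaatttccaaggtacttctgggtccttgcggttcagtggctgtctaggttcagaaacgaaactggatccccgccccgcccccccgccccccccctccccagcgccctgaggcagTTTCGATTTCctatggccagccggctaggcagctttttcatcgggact
Ifih1: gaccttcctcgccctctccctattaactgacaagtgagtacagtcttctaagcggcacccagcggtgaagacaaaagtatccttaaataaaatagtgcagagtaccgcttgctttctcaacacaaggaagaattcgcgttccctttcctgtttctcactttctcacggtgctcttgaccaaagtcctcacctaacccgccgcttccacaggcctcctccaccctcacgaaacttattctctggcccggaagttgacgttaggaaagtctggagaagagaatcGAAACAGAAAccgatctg
Oas3: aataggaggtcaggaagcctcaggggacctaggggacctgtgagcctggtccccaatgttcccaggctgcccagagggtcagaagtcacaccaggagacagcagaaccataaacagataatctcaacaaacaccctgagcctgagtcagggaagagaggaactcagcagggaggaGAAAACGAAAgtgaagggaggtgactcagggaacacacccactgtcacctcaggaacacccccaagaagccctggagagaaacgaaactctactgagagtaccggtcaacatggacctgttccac
Ifit3: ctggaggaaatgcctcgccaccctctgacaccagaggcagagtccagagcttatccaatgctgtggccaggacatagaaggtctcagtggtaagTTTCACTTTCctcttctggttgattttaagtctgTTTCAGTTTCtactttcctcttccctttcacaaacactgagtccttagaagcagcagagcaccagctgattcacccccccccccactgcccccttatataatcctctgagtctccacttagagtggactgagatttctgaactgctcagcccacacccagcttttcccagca
Ifit1: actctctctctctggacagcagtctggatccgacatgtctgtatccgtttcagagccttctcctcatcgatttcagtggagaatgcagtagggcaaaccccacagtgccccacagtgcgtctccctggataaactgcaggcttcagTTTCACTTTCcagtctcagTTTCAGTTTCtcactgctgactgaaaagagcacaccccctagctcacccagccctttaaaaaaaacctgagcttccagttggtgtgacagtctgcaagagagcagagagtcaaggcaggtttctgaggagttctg
Rsad2: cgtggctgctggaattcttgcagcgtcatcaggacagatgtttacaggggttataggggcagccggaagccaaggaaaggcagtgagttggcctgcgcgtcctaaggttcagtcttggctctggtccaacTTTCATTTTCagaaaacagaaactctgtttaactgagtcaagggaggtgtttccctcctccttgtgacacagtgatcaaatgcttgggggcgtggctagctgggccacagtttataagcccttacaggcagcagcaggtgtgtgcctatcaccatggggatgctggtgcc
Ifnar1: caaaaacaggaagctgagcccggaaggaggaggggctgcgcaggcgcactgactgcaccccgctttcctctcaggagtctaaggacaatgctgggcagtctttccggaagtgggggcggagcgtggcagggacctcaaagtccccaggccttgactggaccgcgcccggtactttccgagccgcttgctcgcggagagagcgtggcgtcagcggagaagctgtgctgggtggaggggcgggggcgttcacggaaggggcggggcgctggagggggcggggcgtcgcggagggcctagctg

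Of the 40 members, 32 had a promoter in the table used; Dhx58, Rtp4, Mx1, Mx2, Oas2, Usp18, Parp9 and Parp14 did not. The ISRE core was found in at least 1 promoter of 16 of the 32 members, against 3.52% of the 9665 tested genes with a promoter and 3.44% of all 32851 promoters. By role it was present in 13 of 21 effectors, 2 of 4 sensing genes, 1 of 5 transcription factors (Stat2) and 0 of 2 receptor genes. The core of the STAT element, TTCNNNGAA, reads the same on both strands and was counted whether or not it overlapped an ISRE core. It was found in at least 1 promoter of 10 of the 32 members, against 8.15% of the 9665 tested genes with a promoter. Counted by promoter, the share was 8.3% of all 32851. These are matches of letters and say nothing of binding.

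Each level is in CPM, the count divided by the TMM-scaled library size, and is given in the order of lines 1, 2 and 3, and gene positions are on GRCm38.p6. Library totals ranged from 27503577 to 35860866 counts, and 15244 to 15959 genes had a count. Trp53 RNA was lower with sgp53, at 206, 277 and 253 CPM in sgNTC lines 1, 2 and 3 and at 71.1, 72.0 and 113 CPM in sgp53 lines 1, 2 and 3 (edgeR adjusted p = 0.0168). The p53 target Cdkn1a was between 647 and 732 CPM in sgNTC and between 73.8 and 101 CPM in sgp53, so both genes followed the labels in all lines. Of 9 fibroblast markers, 7 were above 1 CPM in every library and Thy1 and Dcn were not. The sum of the 9 was 5536 to 6607 CPM in sgNTC and 6890 to 9367 CPM in sgp53, most of it Vim and Fn1. Single markers moved otherwise: Col1a1 was at 5.18 to 12.6 CPM in sgNTC and 221 to 744 CPM in sgp53, while Vim was lower with sgp53 in each line. Of 10 leukocyte markers, 7 were under 1 CPM in every library and, among these, Emr1 and Cd3e had no count. The summed leukocyte level was 13.3 to 16.1 CPM in sgNTC and 7.95 to 8.49 CPM in sgp53. The summed epithelial level, of 5 markers, was 259 to 646 CPM in sgNTC and 88.7 to 132 CPM in sgp53, nearly all of it Krt18 and Epcam, while 4 endothelial markers summed to 1.64 to 2.65 CPM. The ribosomal precursor Rn45s was at 3338 CPM in sgp53 line 3 and 636 to 864 CPM elsewhere. The part of these levels in the results was not tested.

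Interferon-stimulated genes were mostly lower with sgp53 in line 1 and mostly higher with sgp53 in line 2. The median log2 CPM of the 39 tested members in lines 1, 2 and 3 was 4.69, 3.80 and 3.80 with sgNTC, and 3.27, 5.80 and 4.63 with sgp53. Line 1 was therefore the highest of the sgNTC libraries and the lowest of the sgp53 libraries. The library with the highest level was sgp53 line 2 for 31 of the 39 members, and the library with the lowest was sgp53 line 1 for 26. The distance from the lowest to the highest library was a median of 2.76 log2 units over the members, against 0.48 over all 13044 tested genes. In bulk cultures, more cells with a response and more RNA per responding cell cannot be told apart.

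**Figure D1:**
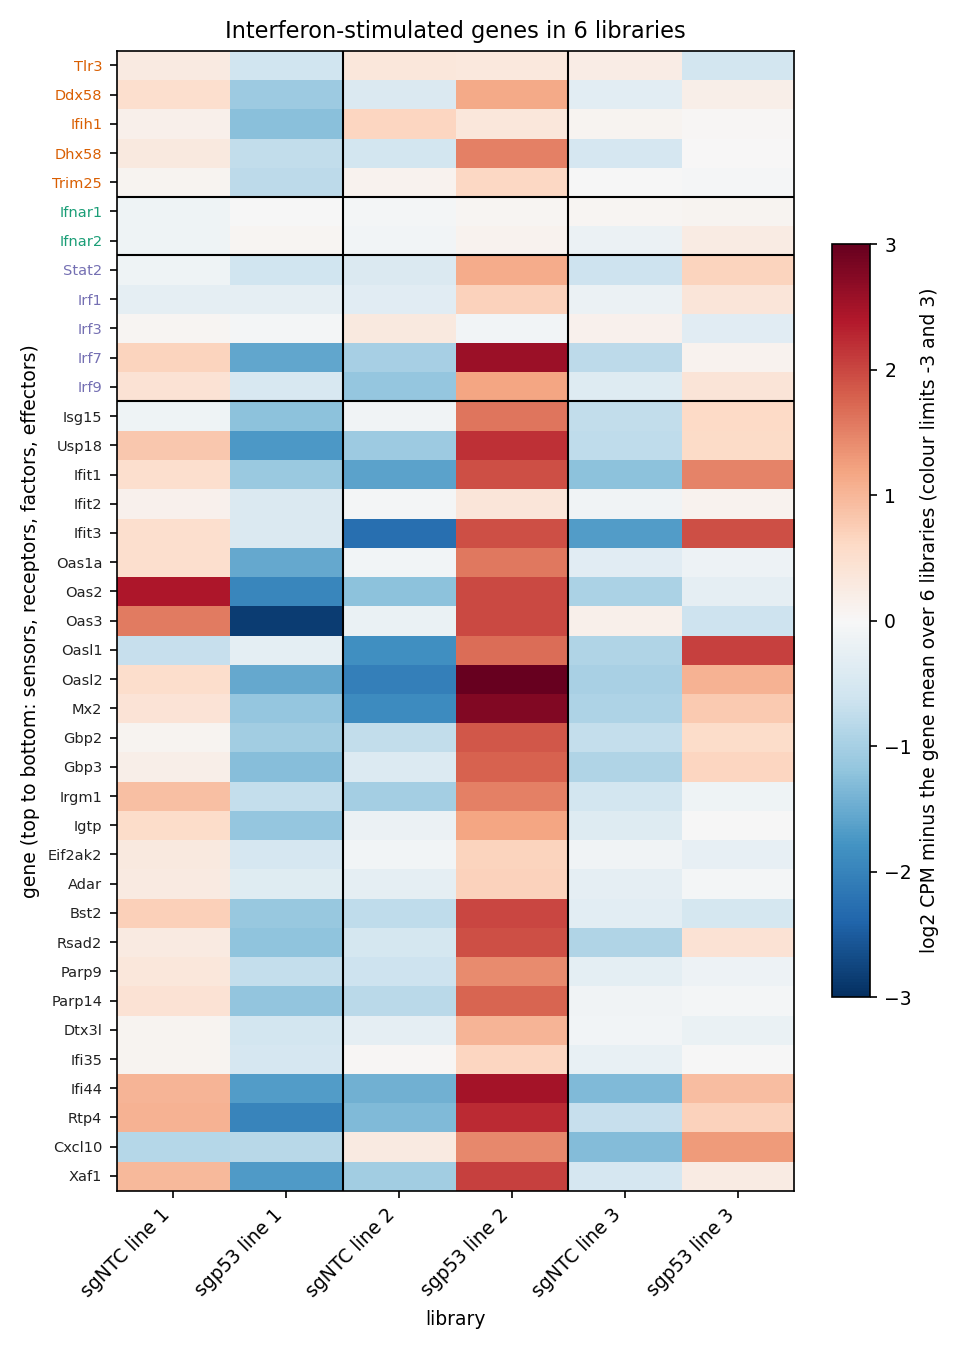
Heat map of log2 CPM of the 39 tested members (rows, in the order sensors, receptors, factors, effectors) in the 6 libraries (columns, paired by line), each gene centred on its mean over the libraries, with colour limits at -3 and 3. Red marks levels above the gene's mean: sgp53 line 2 is the highest library for 31 members and sgp53 line 1 the lowest for 26.

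Within line 1, sgp53 was below sgNTC for 35 members and above it for 4, with a median log2 difference of -1.12. Of these 39, 23 were over 2-fold lower, against 4.45% of all tested genes, and 0 were over 2-fold higher, against 3.02%. Within line 2, sgp53 was above sgNTC for 36 members and below it for 3, with a median of 2.06. There 29 were over 2-fold higher, against 7.47% of tested genes, and 0 over 2-fold lower, against 4.03%. Line 3 lay between, with 31 above and 8 below and a median of 0.50; 14 were over 2-fold higher, against 6.50% of tested genes, and 0 over 2-fold lower, against 5.27%. Over all tested genes the median difference was -0.012, 0.0008 and -0.011 in the 3 lines. Both directions at once, over 2-fold lower in line 1 and over 2-fold higher in line 2, held for 22 of the 39 members and for 1.00% of tested genes. With 1 library per line and guide there are no residual degrees of freedom for a line-by-guide term, so the difference between lines was not tested.

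**Figure D2:**
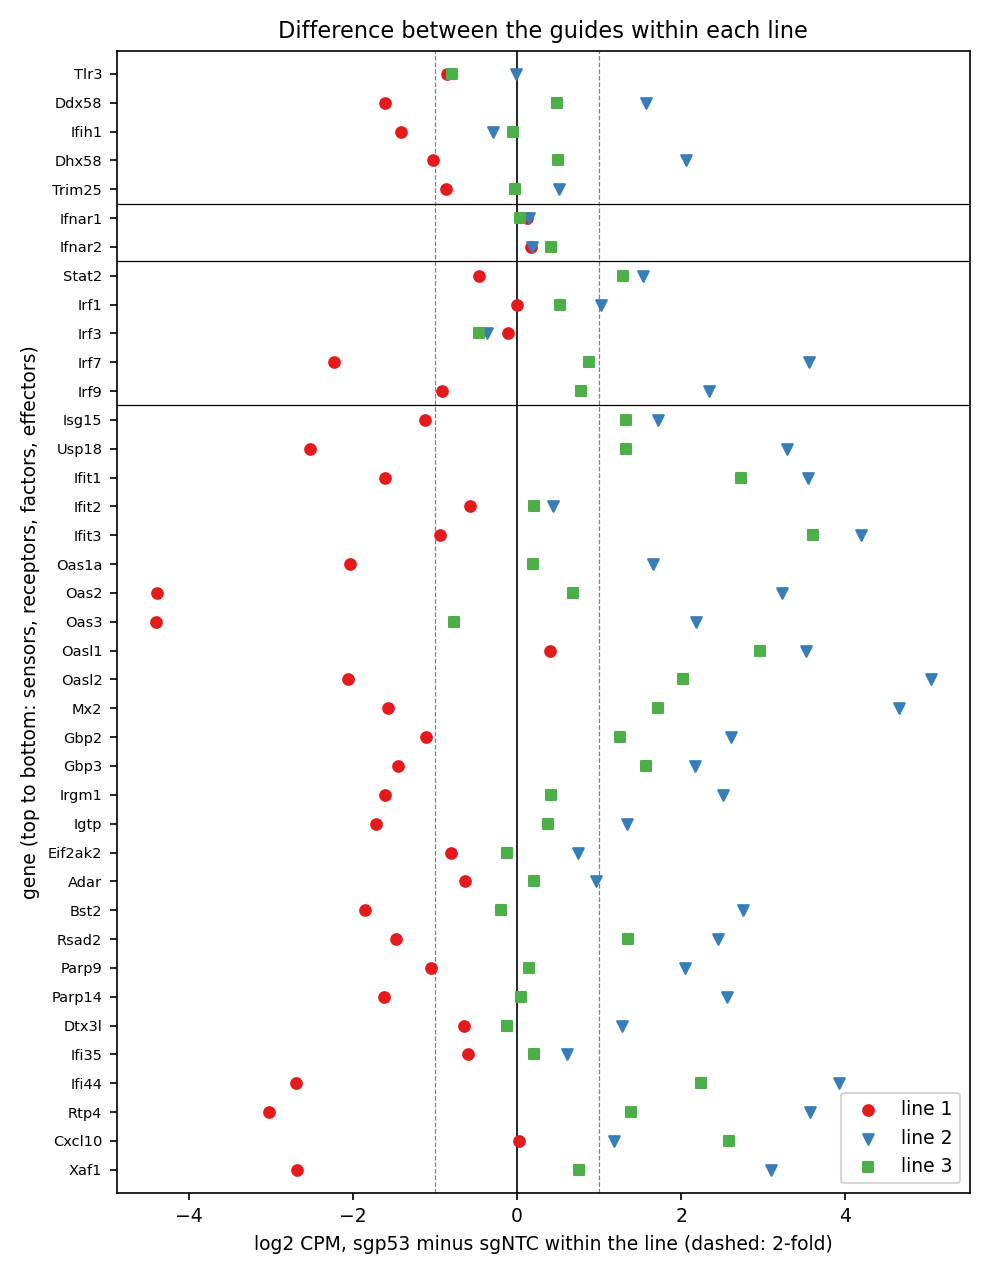
Log2 CPM of sgp53 minus sgNTC within line 1 (circles), line 2 (triangles) and line 3 (squares) for each tested member, 1 row a gene; dashed lines mark 2-fold. Circles lie left of 0 for 35 of 39 genes and triangles right of 0 for 36, while squares spread from -0.79 to 3.60.

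**Figure D3:**
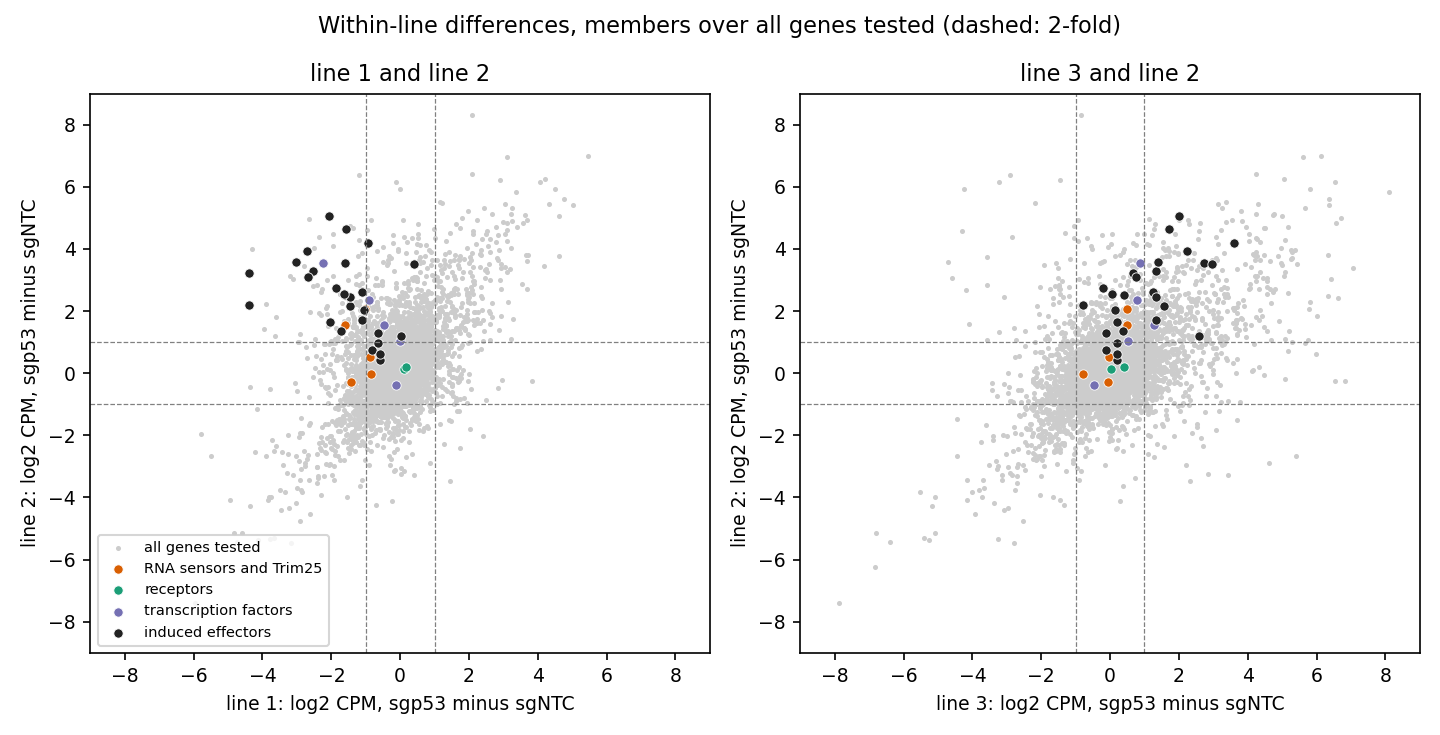
Within-line log2 differences of line 2 (vertical axes) against line 1 (left) and line 3 (right), for all 13044 tested genes in grey and the members coloured by role. In the left panel 22 members lie in the upper left corner beyond 2-fold on both axes, where 1.00% of tested genes lie.

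All 5 sensing genes were lower with sgp53 in line 1 and had their lowest level in sgp53 line 1. In lines 2 and 3 they did not all follow 1 pattern. Ddx58 (chromosome 4, 40203777 to 40239825), which encodes RIG-I, a sensor of short or triphosphorylated RNA, was at 94.8, 49.4 and 53.6 CPM in sgNTC lines 1, 2 and 3 and at 31.1, 146 and 75.1 CPM in sgp53 lines 1, 2 and 3. It was 3.05-fold lower (2.83 to 3.28) in sgp53 of line 1 and 2.96-fold higher (2.79 to 3.15) in sgp53 of line 2. Here and below, parentheses after a fold within a line hold its 95% exact interval, which covers the counting error of those 2 libraries only. Dhx58 (chromosome 11, 100694884 to 100704271), encoding LGP2, which modulates the other sensors of its family, had the same order at lower counts: 6.73, 3.73 and 3.89 CPM in sgNTC and 3.28, 15.7 and 5.54 CPM in sgp53. Both genes had their highest level in sgp53 line 2 and their lowest in sgp53 line 1, and the ranges of the guides overlapped.

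Ifih1 (chromosome 2, 62595618 to 62646255), encoding MDA5, which recognises long double-stranded RNA, was at 145, 203 and 138 CPM in sgNTC and 54.4, 166 and 133 CPM in sgp53. Ifih1 was 2.67-fold lower (2.52 to 2.83) in sgp53 of line 1. In line 2 its direction was the reverse of that of Ddx58, 1.22-fold lower (1.18 to 1.27) in sgp53. Tlr3 (chromosome 8, 45395665 to 45411075), the endosomal sensor, was at 13.2, 13.8 and 12.9 CPM in sgNTC and 7.27, 13.7 and 7.44 CPM in sgp53: sgp53 lines 1 and 3 were low and the other 4 libraries were close together. Trim25 (chromosome 11, 88999403 to 89020294), the ubiquitin ligase that assists RIG-I, was at 142, 144 and 133 CPM in sgNTC and 77.8, 206 and 130.2 CPM in sgp53 and was lowest in sgp53 line 1. Over the 5 sensing genes the median log2 difference was -1.02, 0.51 and -0.03 in lines 1, 2 and 3. None was called over the 3 lines; the edgeR adjusted p ranged from 0.268 for Tlr3 to 0.974 for Trim25. For Tlr3 the edgeR adjusted p was 0.04 without sgp53 line 2 (log2 fold change -0.85), and over all alternatives it ranged from 0.04 to 0.616.

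The receptor genes were the most even members. Ifnar1 (chromosome 16, 91485032 to 91510523), the subunit bound by the kinase Tyk2, was at 94.2, 98.6 and 108 CPM in sgNTC and 103, 108 and 109.8 CPM in sgp53, and its highest library was 1.16-fold above its lowest. Ifnar2 (chromosome 16, 91372783 to 91405589), the subunit that carries Jak1, was at 24.7, 25.3 and 23.7 CPM in sgNTC and 27.8, 28.7 and 31.7 CPM in sgp53. All 3 sgp53 libraries of Ifnar2 lay above all 3 sgNTC libraries, with means of 24.6 ± 0.765 CPM in sgNTC and 29.4 ± 2.03 CPM in sgp53 (SD, n = 3 each). The Ifnar2 log2 fold change of 0.26 (SE 0.08) was not called, with an edgeR adjusted p of 0.0996. The receptor RNAs thus lacked the split between lines 1 and 2 seen in the effectors: their within-line log2 differences were all between 0.03 and 0.42.

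Among the transcription factors, the interferon-induced ones varied and Irf3 did not follow them. Irf7 (chromosome 7, 141263183 to 141266499), an induced factor that amplifies interferon output, was at 26.5, 8.26 and 9.58 CPM in sgNTC lines 1, 2 and 3 and at 5.56, 97.8 and 17.7 CPM in sgp53 lines 1, 2 and 3. That is 4.75-fold lower (4.02 to 5.65) in sgp53 of line 1, 11.8-fold higher (10.3 to 13.6) in sgp53 of line 2 and 1.84-fold higher (1.59 to 2.14) in sgp53 of line 3, and the highest library was 17.6-fold above the lowest. Irf9 (chromosome 14, 55603985 to 55610030), the DNA-binding part of the complex that Stat2 joins, had the same signs at 42.7, 14.2 and 24.1 CPM in sgNTC and 22.6, 72.0 and 41.4 CPM in sgp53. Stat2 (chromosome 10, 128270498 to 128292853), its partner, was at 25.8, 21.0 and 18.5 CPM in sgNTC and 18.7, 61.1 and 45.2 CPM in sgp53: the sgp53 libraries of lines 2 and 3 lay above the other 4, which were between 18.5 and 25.8 CPM. Irf1 (chromosome 11, 53770014 to 53778374), a factor induced by interferon gamma and other signals, was at 13.2, 12.5 and 14.1 CPM in sgNTC and 13.1, 25.4 and 20.2 CPM in sgp53. Line 1 had nearly equal Irf1 levels with both guides, and lines 2 and 3 were higher with sgp53.

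Irf3 (chromosome 7, 44997648 to 45002848), the latent factor that the sensors activate by phosphorylation, was at 74.9, 88.1 and 79.6 CPM in sgNTC and 69.5, 68.2 and 57.6 CPM in sgp53. It was lower in sgp53 in each line, and the guides did not overlap, with means of 80.9 ± 6.71 CPM in sgNTC and 65.1 ± 6.55 CPM in sgp53 (SD, n = 3 each). Its log2 fold change was -0.31 (SE 0.10) and was not called by edgeR (adjusted p = 0.0995); DESeq2 called it (adjusted p = 0.0474), and over all alternatives the adjusted p ranged from 0.0474 to 0.342. Over the 5 factors the median within-line difference was -0.46, 1.54 and 0.78 log2 units in lines 1, 2 and 3.

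The 27 tested effectors had median differences of -1.57, 2.51 and 0.75 log2 units in lines 1, 2 and 3, farther from 0 than the factors' in lines 1 and 2 and not in line 3. In line 1, 25 of 27 were lower in sgp53 and 19 of them over 2-fold, against 4.45% of all tested genes. In line 2, 27 of 27 were higher and 23 over 2-fold, against 7.47%. In line 3, 23 were higher and 13 over 2-fold, against 6.50%. Isg15 (chromosome 4, 156199424 to 156200818), the ubiquitin-like modifier, was at 46.0, 46.3 and 29.9 CPM in sgNTC lines 1, 2 and 3 and at 21.1, 153 and 75.3 CPM in sgp53 lines 1, 2 and 3. It was 2.18-fold lower (1.99 to 2.40) in sgp53 of line 1, 3.30-fold higher (3.11 to 3.51) in line 2 and 2.52-fold higher (2.33 to 2.73) in line 3. Usp18 (chromosome 6, 121245906 to 121270917), the protease that removes ISG15 and restrains the receptor, was at 24.6, 6.59 and 8.30 CPM in sgNTC and 4.23, 64.8 and 20.8 CPM in sgp53. Its levels in sgNTC lines 2 and 3 and in sgp53 line 1 were all under 9 CPM, while sgNTC line 1 and sgp53 line 3 were at 24.6 and 20.8 CPM and sgp53 line 2 was at 64.8 CPM.

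**Figure D4:**
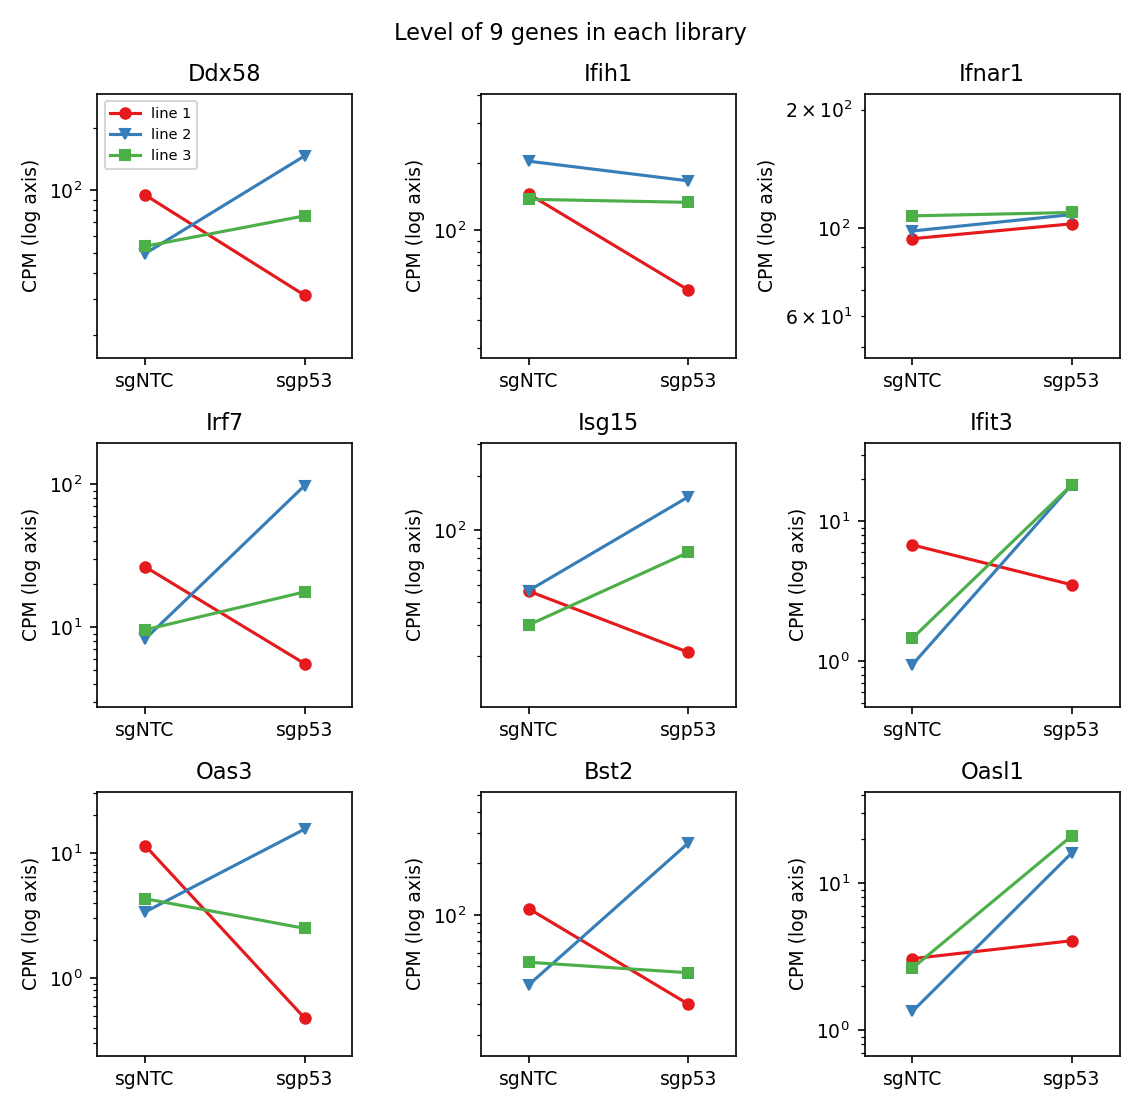
CPM (log axes, each with its own range) of 9 members in the sgNTC and sgp53 library of each line, joined by line: circles line 1, triangles line 2, squares line 3. For Ddx58, Irf7 and Isg15 line 1 goes down and lines 2 and 3 go up; Ifnar1 is level; for Ifit3 and Oasl1 lines 2 and 3 end close together; for Oas3 and Bst2 only line 2 goes up.

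The IFIT proteins bind viral RNA and block its translation. Ifit1 (chromosome 19, 34640889 to 34650009) was at 39.0, 8.99 and 11.5 CPM in sgNTC and 12.7, 105 and 76.6 CPM in sgp53, that is, 3.08-fold lower (2.74 to 3.46) in sgp53 of line 1, 11.7-fold higher (10.3 to 13.4) in line 2 and 6.64-fold higher (5.92 to 7.46) in line 3. Ifit3 (chromosome 19, 34583119 to 34588982) has a near-identical neighbour, Ifit3b, with which reads may be shared. Ifit3 was at 6.79, 0.942 and 1.46 CPM in sgNTC and 3.52, 18.4 and 18.4 CPM in sgp53. In lines 2 and 3 its sgp53 libraries reached the same level, 18.4 CPM, from 0.942 and 1.46 CPM. Ifit2 (chromosome 19, 34550550 to 34576534), of the same cluster, was at 32.3, 28.2 and 27.5 CPM in sgNTC and 21.7, 38.0 and 31.7 CPM in sgp53, the narrowest range of the 3. With both libraries of line 1 left out, Ifit1 and Ifit3 were called in the remaining 4 libraries (log2 fold changes 3.15 and 3.93, edgeR adjusted p = 0.02998 for each); over all alternatives their adjusted p ranged from 0.02998 to 0.651 and 0.557.

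The OAS enzymes make the second messenger that activates RNase L. Oas3 (chromosome 5, 120753098 to 120777684) was at 11.5, 3.37 and 4.30 CPM in sgNTC and 0.478, 15.5 and 2.49 CPM in sgp53. Oas2 (chromosome 5, 120730333 to 120749886) was at 7.72, 0.544 and 0.677 CPM in sgNTC and 0.307, 5.64 and 1.12 CPM in sgp53. In sgp53 of line 1 they had the largest folds of any tested member, Oas3 24.0-fold lower (14.1 to 44.2) and Oas2 25.1-fold lower (13.0 to 55.6), the latter from 257 counts against 9. In line 3 the log2 differences were under 2-fold, -0.77 for Oas3 and 0.68 for Oas2. Oas1a (chromosome 5, 120896256 to 120907544), 1 of a tandem family whose reads may be shared, was at 15.4, 10.4 and 8.60 CPM in sgNTC and 3.72, 32.8 and 9.83 CPM in sgp53.

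The OAS-like genes ran differently. Oasl2 (chromosome 5, 114896926 to 114912245) was at 19.0, 3.15 and 6.74 CPM in sgNTC and 4.51, 106 and 27.4 CPM in sgp53 and had the largest log2 difference of any tested member in line 2, 5.04. Oasl1 (chromosome 5, 114923143 to 114937911), which in mice holds back translation of Irf7, was at 3.07, 1.34 and 2.64 CPM in sgNTC and 4.06, 16.1 and 21.1 CPM in sgp53. It is 1 of 4 tested members that were not lower in sgp53 of line 1, and all its sgp53 libraries lay above all its sgNTC libraries. The means were 2.35 ± 0.899 CPM in sgNTC and 13.7 ± 8.74 CPM in sgp53 (SD, n = 3 each). Oasl1 had the smallest p of the members, and its log2 fold change was 2.54 with an SE of 0.63. The edgeR adjusted p was 0.0637, short of the threshold of 0.05. It was called by DESeq2 (adjusted p = 0.000176) and by edgeR without sgp53 line 1 (0.0428), and its adjusted p ranged up to 0.294 over the alternatives.

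The Mx genes encode dynamin-like antiviral GTPases. Mx1 (chromosome 16, 97447035 to 97462906), which many laboratory strains carry in a defective form, had 0 counts in each sgNTC library and 2, 21 and 21 counts in sgp53 lines 1, 2 and 3. Set against an assumed floor of 3 counts over the sgNTC group, the sgp53 group was 14.1-fold higher. That ratio pools the lines and leaves out counting error, so it is not a lower bound. The exact intervals of the fold within lines 1, 2 and 3 had lower limits of 0.213, 3.99 and 5.40. The 2 counts of line 1 therefore did not settle a difference in that line. DESeq2 called Mx1 (adjusted p = 0.00943), and the adjusted p lay between 0.00943 and 0.182 in the 7 alternatives that tested it. Mx2 (chromosome 16, 97536081 to 97560901) was detected in every library, at 3.07, 0.580 and 1.19 CPM in sgNTC and 0.990, 16.1 and 4.04 CPM in sgp53, and was 27.8-fold higher (17.0 to 49.0) in sgp53 of line 2.

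The interferon-induced GTPases of the guanylate-binding and immunity-related families, which act on vacuoles that hold intracellular pathogens, were lower in sgp53 of line 1 and higher in sgp53 of lines 2 and 3 in all 4 cases. Irgm1 (chromosome 11, 48865245 to 48871420), the regulator of the family, was at 64.1, 17.0 and 23.4 CPM in sgNTC and 21.0, 97.3 and 31.2 CPM in sgp53. Gbp3 (chromosome 3, 142560016 to 142573213), a guanylate-binding protein, was at 14.2, 9.42 and 6.64 CPM in sgNTC and 5.16, 42.6 and 19.8 CPM in sgp53. For Irgm1 sgNTC line 1 was far above the other sgNTC libraries, which Gbp3 showed to a lesser degree. Gbp2 ranged from 4.68 to 35.7 CPM and Igtp from 4.47 to 22.9 CPM, each lowest in sgp53 line 1 and highest in sgp53 line 2.

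Bst2 (chromosome 8, 71534255 to 71537472), tetherin, which holds budding virus at the cell surface, was at 109, 39.1 and 52.9 CPM in sgNTC and 30.1, 263 and 46.0 CPM in sgp53. Its sgp53 libraries spanned the range: 263 CPM in line 2, against 30.1 and 46.0 CPM in lines 1 and 3. Rsad2 (chromosome 12, 26442743 to 26456452), viperin, an enzyme that interferes with viral replication, was at 9.11, 5.25 and 4.00 CPM in sgNTC and 3.24, 29.0 and 10.2 CPM in sgp53, lowest in sgp53 line 1 and highest in sgp53 line 2. Eif2ak2 (chromosome 17, 78850504 to 78882572), the kinase PKR that stops translation upon binding double-stranded RNA, was at 110.2, 85.1 and 83.3 CPM in sgNTC and 63.1, 143 and 76.2 CPM in sgp53. Adar (chromosome 3, 89714469 to 89753455), which edits adenosines in double-stranded RNA, was at 108, 73.5 and 74.3 CPM in sgNTC and 69.5, 143 and 85.7 CPM in sgp53. Eif2ak2 and Adar differed by under 2-fold within each line, lower with sgp53 in line 1 and higher in line 2.

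Parp9 and its partner Dtx3l, whose annotated ends overlap on chromosome 16, were measured without a known strand setting, so shared reads cannot be told apart. Parp9 (chromosome 16, 35938470 to 35972621) was at 33.5, 17.1 and 21.5 CPM in sgNTC and 16.1, 70.8 and 23.8 CPM in sgp53. Dtx3l (chromosome 16, 35926515 to 35939027), a ubiquitin ligase, was at 27.3, 21.2 and 24.2 CPM in sgNTC and 17.4, 51.6 and 22.2 CPM in sgp53. Parp14 (chromosome 16, 35831892 to 35871518), a related ADP-ribosyltransferase, was at 20.2, 8.59 and 13.9 CPM in sgNTC and 6.52, 50.6 and 14.3 CPM in sgp53. These 3 genes had log2 differences between -0.13 and 0.14 in line 3, against 1.28 to 2.55 in line 2. In each of them sgNTC line 1 was second only to sgp53 line 2.

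Of the remaining effectors, Ifi44, Rtp4 and Xaf1 had large differences in both directions. Ifi44 (chromosome 3, 151730922 to 151749910) was at 30.1, 5.44 and 5.86 CPM in sgNTC and 4.57, 83.6 and 27.9 CPM in sgp53. Rtp4 (chromosome 16, 23520219 to 23614222), a chaperone of receptor transport, was at 24.3, 4.64 and 7.21 CPM in sgNTC and 2.94, 55.6 and 19.0 CPM in sgp53. Xaf1 (chromosome 11, 72301461 to 72313733), a binding partner of XIAP, was at 61.6, 15.1 and 22.0 CPM in sgNTC and 9.56, 129.6 and 37.1 CPM in sgp53. In sgp53 of line 1 Ifi44 was 6.58-fold lower (5.49 to 7.94), Rtp4 8.29-fold lower (6.63 to 10.5) and Xaf1 6.44-fold lower (5.68 to 7.32), and for all 3 sgNTC lines 2 and 3 were close together. Cxcl10 (chromosome 5, 92346638 to 92348889), a chemokine that draws activated T cells, was at 8.24, 17.9 and 5.96 CPM in sgNTC and 8.36, 40.8 and 35.9 CPM in sgp53, level in line 1 and 6.03-fold higher (5.13 to 7.12) in sgp53 of line 3. Ifi35 stayed between 17.5 and 39.1 CPM.

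Line 3 divided the members. The 14 that were over 2-fold higher in sgp53 of line 3 were Stat2, Isg15, Usp18, Ifit1, Ifit3, Oasl1, Oasl2, Mx2, Gbp2, Gbp3, Rsad2, Ifi44, Rtp4 and Cxcl10, and all 14 were also over 2-fold higher in line 2. Of them, 10 were over 2-fold lower in sgp53 of line 1, and Stat2, Ifit3, Oasl1 and Cxcl10 were not. The other 25 members, with the OAS enzymes, the PARP genes, Bst2 and 5 of 5 sensing genes among them, had line 2 differences with a median of 1.34, against 3.40 for the 14. The division was made on the line 3 values and is a description.

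The sgNTC libraries already differed. In sgNTC, line 1 was over 2-fold above both other lines for 13 of the 39 members, against 2.12% of tested genes, and these were 12 effectors and Irf7. Lines 2 and 3 lay within 2-fold of each other in sgNTC for 37 of 39, close to the 93.5% of all tested genes. The labels give the descriptions of lines 2 and 3 a shared number that line 1 lacks and do not say what it marks. In those 2 lines alone edgeR called 2 members higher, Ifit1 and Ifit3, against 0.0840% of the genes it tested (11 of 13092), and the members' median log2 fold change was 1.55. Among the sgp53 libraries, line 2 was over 2-fold above both others for 21 of 39, against 0.759% of tested genes.

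Over the 3 lines together, no member was called between sgp53 and sgNTC. EdgeR called 0 of 39 higher and 0 lower at an adjusted p under 0.05, against 2.76% and 3.69% of all tested genes. At an unadjusted p under 0.05 there were 4 of 39 members (Ifnar2, Irf1, Irf3 and Oasl1), against 29.0% of all tested genes, a smaller share among the members. The fit with the line as a replicate block also called 0, against 0.966% of tested genes higher and 1.42% lower. It had 3 members at an unadjusted p under 0.05, against 26.1% of tested genes. DESeq2 called Oasl1 and Mx1 higher and Irf3 lower, against 8.59% and 8.61% of the genes it tested. The groups did not overlap for 2 tested members with sgp53 higher (Ifnar2 and Oasl1) and 1 with sgp53 lower (Irf3), against 17.8% and 19.0% of tested genes. The median log2 fold change was 0.75, with 33 positive and 6 negative, against -0.010 over all tested genes. The members' median SE was 0.63, against 0.12 over all tested genes, so the fit's error was several times wider here. The median depended on line 2: it was -0.13 without sgp53 line 2 and -0.26 without both libraries of line 2, and 1.55 without both of line 1.

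The interferon transcripts examined were at or near 0. Ifna1, Ifna2, Ifng, Ifnl2 and Ifnl3 had no count in any library. Ifnb1, which encodes interferon beta, had 1 count in sgp53 line 2, 2 in sgp53 line 3 and 0 in the other 4 libraries, while Ifna4 had 0 or 1. A difference between libraries in the RNA of these interferons was therefore not detectable at this depth. Other interferon genes were not examined.

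Of 72 other genes of the pathway, 57 were tested and edgeR called 0 higher and 0 lower, against the 2.76% and 3.69% of all tested genes. At an unadjusted p under 0.05 there were 11, against 29.0%, and DESeq2 called 4 higher and 3 lower, against 8.59% and 8.61%. Socs1, an induced inhibitor of the kinases, was at 6.91, 4.28 and 7.38 CPM in sgNTC and 6.83, 7.34 and 10.7 CPM in sgp53. Mavs, the adaptor that relays RIG-I and MDA5 signals, was even at 54.1, 62.3 and 55.4 CPM in sgNTC and 54.5, 54.6 and 59.3 CPM in sgp53. Tmem173 (STING), the adaptor for cytosolic DNA, was at 49.7, 74.9 and 72.4 CPM in sgNTC and 46.8, 56.6 and 47.8 CPM in sgp53. Mb21d1 (cGAS), the DNA sensor upstream of it, was at 46.0, 53.1 and 49.8 CPM in sgNTC and 35.1, 44.6 and 41.6 CPM in sgp53. Neither of these DNA-sensing genes had the high level in sgp53 line 2 that marked the effectors.

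The 33 tested induced genes of this list had median within-line log2 differences of -1.13, 1.28 and 0.22. Of them, 17 were over 2-fold lower in line 1 and over 2-fold higher in line 2, against 1.00% of all tested genes. The most abundant genes of the list were Jak1, Samhd1, Pml, Ifitm3, Zc3hav1 and Ifitm2. Jak1, a receptor kinase, was at 194, 212 and 195 CPM in sgNTC and 205, 216 and 249 CPM in sgp53. Samhd1, which depletes nucleotides, was at 145, 169.9 and 143 CPM in sgNTC and 161, 175 and 166 CPM in sgp53. Both were even across lines and guides. Ifitm3, which blocks virus entry at endosomes, had the order of the effectors at 146, 114 and 96.3 CPM in sgNTC and 55.1, 273 and 118 CPM in sgp53. Pml, the organiser of nuclear bodies, was at 167, 172 and 149 CPM in sgNTC and 82.1, 136 and 102 CPM in sgp53, with DESeq2 calling it lower (adjusted p = 0.00914) and edgeR not (0.0905). Zc3hav1, an antiviral zinc finger protein, was at 137, 133 and 130.3 CPM in sgNTC and 104, 149 and 111 CPM in sgp53. Ifitm2 was at 103, 116 and 105 CPM in sgNTC and 107, 119 and 123 CPM in sgp53, with no high level in sgp53 line 2.

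A search of 12015 other tested genes with a mean of at least 1 CPM ranked them by how near their centred log2 profile over the 6 libraries was to the median profile of the members. The 7 nearest were Irgm2, Gbp7, Ifi202b, Oas1b, Ifitm3, H2-T23 and Tapbp, with mean absolute differences from 0.0917 to 0.19 log2 units. The distance is a description over 6 libraries. Over all 12015 the median distance was 0.649, and over the members themselves it was 0.425. Irgm2, the nearest, was at 14.0, 6.74 and 7.25 CPM in sgNTC and 4.34, 27.0 and 10.7 CPM in sgp53. Among them, H2-T23 and Tapbp belong to class I antigen presentation. Among the members, Dhx58 and Ddx58 were nearest to the median profile (0.107 and 0.131) and Oasl1 and Ifit3 farthest (0.967 and 1.03).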

How the data were processed

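RNA-seq was done on 6 libraries, 1 per line and guide, made from total RNA with a stranded TruSeq kit, per the labels' protocols. The authors deposited raw read counts per gene symbol with no normalization. CASAVA 1.8, STAR, DESeq2 and the mm10 build are named, without roles, in the submitters' processing notes. The counter, the annotation and the strandedness of counting were not given in the sources used here, and overlapping genes and near copies cannot be told apart. From the counts, edgeR 4.0.16 (R 4.3.3) was fitted without a block on all genes passing filterByExpr (13044 of 23420), with TMM normalization, the quasi-likelihood F-test and Benjamini-Hochberg adjustment over all tested genes at 0.05. The fit has 4 residual degrees of freedom, and 3 against 3 libraries cannot go below 0.1 in an exact permutation test. Levels are CPM on the normalized library total. Within-line differences are of log2 CPM with a prior count of 2. SEs are the coefficient over the square root of F. DESeq2 1.42.0, RLE size factors, no filter, the line as a block and leaving out libraries or lines were alternatives. Both libraries of a number come from 1 line per the labels; their deviations correlated at 0.0893, 0.00177 and -0.0272 in lines 1, 2 and 3. P-values measure the spread between lines, which the labels do not say are separate embryos. Libraries of a group differed beyond sampling noise. Coordinates are RefSeq genes on GRCm38.p6, the assembly of mm10; 40 of 40 members matched. The 40 members, the lists, tests and naming rules were chosen with earlier results of these data known. Named are all members, Trp53 and Cdkn1a, signalling genes and the most abundant genes of the pathway list, and the genes of nearest profile; a few items these rules take in are not reported here. The edgeR script was tested on simulated data. Older symbols were Ifi27l1 for Ifi27 and Emr1 for Adgre1.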

Additional observations from a re-analysis of the deposited data

Results flagged for a closer look

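The members' median within-line difference between sgp53 and sgNTC was negative in line 1 and positive in lines 2 and 3, a pattern of signs that 27 of the 39 tested members had singly. The median log2 difference was -1.123 in line 1, 2.057 in line 2 and 0.5027 in line 3 over the 39 tested members. For the transcription factors it was -0.4607, 1.538 and 0.7755, and for the induced effectors -1.569, 2.509 and 0.7521, in the same order. The sensing genes' median was negative in lines 1 and 3 (-1.02 and -0.03) and positive in line 2 (0.51), and both receptor genes were higher with sgp53 in all 3 lines. Each line gave 1 library per guide, so the difference between lines was not tested. Groups of 3 libraries are too small for a check of single outlying libraries.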

How the results depend on the processing

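Of 507 fits of single members under alternatives, 501 left the call as it was and 6 turned an uncalled member into a called one, in Tlr3, Irf3, Ifit1, Ifit3 and Oasl1. DESeq2 called 2 members higher and 1 lower, and 4 and 3 other pathway genes (Socs3, Iigp1, Gbp6 and Ccl5 higher; Tbk1, Pml and Cd274 lower), where edgeR called 0; the cause was not tested. Leaving out 1 library or 1 line, where 19 to 700 of all genes were called, gave 0 to 2 members called higher, 0 to 1 called lower, 0 to 1 other pathway genes called lower (Tmem173 without sgNTC line 1, Pml without sgp53 line 2) and a members' median log2 fold change of -0.26 to 1.55. The fit with the line as a replicate block called 0 members and 0 other pathway genes and had a median of 0.43; it changed no call named here. With Mx1 admitted, 1 member was over 2-fold higher in line 1. On library totals alone the receptors' median difference was 0.0966 in line 1 and 0.141 in line 3, against 0.149 and 0.222; the counts over 2-fold within lines stayed at 23, 29 and 14 under other size factors and prior counts of 0.5 and 5. Mx1, Oas2 and the interferon genes rest on few counts.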
